A study of Mus musculus with 15 samples.

Results

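The genes described here are 10 genes of tumour macrophages: the growth factor Csf1 and its receptor Csf1r, the chemokine receptor Ccr2, the integrin subunit Itgam, the endocytic receptors Cd68, Mrc1, Msr1 and Cd163, and the arginine-using enzymes Arg1 and Nos2. They were taken as a list by name, through the transcript that each array probe was designed on. Of the 10 genes, 9 had a probe that could be named, against 19752 named genes on the array in all, and no probe was named for Cd68. That gene has no values here because none of its transcripts in the RefSeq table is one that a probe was designed on; 29625 probes stayed unnamed in this way, so a probe for Cd68 may be among them. The 9 genes had 16 probes. Cd163 was well above background on 1 of 15 arrays (nintedanib replicate 4, level -4.82) and was not tested, which left 8 genes with 15 probes.

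The arrays were hybridised with total RNA of mammary tumours from female mice. MMTV-PyMT mice carry a viral oncogene, the polyoma middle T antigen, under a mammary promoter, and the tumours are whole dissections that hold tumour epithelium, stroma and leukocytes together. The groups were nintedanib (n = 4), an oral inhibitor of the VEGF, FGF and PDGF receptor kinases given at 85 mg per kg per day, B20 (n = 4), an antibody against VEGF injected into the peritoneum at 5 mg per kg, 2 times per week, vehicle (n = 3), all from 7 weeks of age and sampled after treatment, and T0 (n = 4), sampled before any treatment. The strain is given in the labels of the 3 groups after treatment and not in those of T0, whose age is not given either. The labels do not say whether replicates are separate mice, so a p-value here reflects only how much these samples vary, and part of that may be technical.

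Macrophages in a tumour come largely from blood monocytes, which are drawn in by CCL2 acting on its receptor CCR2 and are kept alive by CSF1 acting on CSF1R. In culture, bacterial products and interferon-gamma drive a classical state with the enzyme NOS2, which makes nitric oxide out of arginine, and interleukin-4 drives an alternative state with ARG1, which splits arginine, and the mannose receptor MRC1. Cells inside tumours often carry genes of both states. In the MMTV-PyMT model, mice without CSF1 are known for slower progression of the tumours and fewer lung metastases.

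Each level is a spot's log2 signal minus the 75th percentile of its own array, differences are log2 differences between group means with the SE of the fit, and a level says nothing about one probe against another. The T0 arrays were on 2 slides of their own and were scanned on another day with another version of the reading protocol, so in a comparison with T0 the slide and scan day cannot be told apart from the group. T0 replicate 3 stood apart with 84.2% of probes well above background, against 53.5% to 68.1% on the other arrays, and T0 replicate 4 carries both a vehicle and a before-treatment label. The general macrophage markers were present throughout: 27 of a list of 28 could be measured, and none was below background on every array. The log2 of their summed level lay between 7.97 and 8.32 with nintedanib, 8.05 and 8.43 with B20, 8.03 and 8.30 with vehicle and 7.96 and 8.56 at T0, with T0 replicate 4 highest. A summed level, here and below, weighs the bright probes of a list most. In whole tumours, fewer cells of a type and less RNA per cell cannot be told apart.

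Promoter sequence was at hand for 6 of the 10 genes (RefSeq, GRCm38.p6). The 250 bases before the start of Mrc1 (chr2:14229164-14229413, plus strand) and of Ccr2 (chr9:124101933-124102182, plus strand) are shown because the levels of these 2 genes went together over the arrays and were highest at T0. Capitals mark the core motif of PU.1, the master transcription factor of the macrophage lineage, which is GAGGAA and reads TTCCTC where it lies on the other strand.
Mrc1: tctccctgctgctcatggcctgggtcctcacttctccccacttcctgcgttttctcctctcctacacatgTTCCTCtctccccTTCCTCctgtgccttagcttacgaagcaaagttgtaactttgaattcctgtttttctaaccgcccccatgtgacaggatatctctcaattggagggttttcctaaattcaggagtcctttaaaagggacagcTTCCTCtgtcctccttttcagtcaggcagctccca
Ccr2: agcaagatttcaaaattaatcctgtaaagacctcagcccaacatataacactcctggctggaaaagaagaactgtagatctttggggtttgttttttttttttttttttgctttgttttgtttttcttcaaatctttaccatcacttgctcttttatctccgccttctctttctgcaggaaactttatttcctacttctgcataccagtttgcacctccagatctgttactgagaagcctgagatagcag
The Mrc1 stretch holds 3 copies, all on the minus strand, at -180, -167 and -35 counted from the start, and the Ccr2 stretch holds none. Itgam, an integrin of myeloid cells, has 2 copies (-84 and -15), Cd68 has 1 (-225), and Csf1 and Cd163 have none. The motif occurs in 23.3% of the 32851 promoters of this length when both strands are searched. The gamma-activated site of STAT factors (TTCNNNGAA, in 7.02% of promoters), the hypoxia response core (ACGTG, in 16.6%) and the TATA box (TATAAA, in 12.4%) matched in none of the 6 promoters. A match describes letters in this window and is no evidence that a factor binds there.

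Among the 3 groups sampled after treatment, none of the 8 genes passed the test. With nintedanib against vehicle 6 of 8 were higher and 2 lower, with a median difference of 0.18 (all genes -0.01) and a lowest adjusted p of 0.999 (limma, Benjamini-Hochberg over 28041 genes). With B20 against vehicle, which shares the same 3 vehicle arrays, 6 were higher and 2 lower (median 0.16, all genes 0.04; lowest adjusted p = 0.998). With nintedanib against B20 4 were higher and 4 lower (median 0.03, all genes -0.04; lowest adjusted p = 0.607). Over all genes, 0.0% were called in each of these 3 comparisons, though some genes had an unadjusted p under 0.05. These were 1354 genes with nintedanib against vehicle (4.83%, 0 of the 8) and 911 with B20 against vehicle (3.25%, 1 of the 8). With nintedanib against B20 they were 2630 (9.38%, 0 of the 8).

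Against T0, before treatment, Ccr2 fell in the vehicle and nintedanib tumours and Nos2 fell in the nintedanib tumours. This is 1 of 8 genes called with vehicle, where 4.92% of all genes were called, 2 of 8 with nintedanib, where 11.4% were, and none with B20, where 9.5% were. An unadjusted p under 0.05 was found in 3 of the 8 with vehicle (21.3% of all genes), 2 with nintedanib (28.2%) and 4 with B20 (26.1%). The median difference of the 8 genes was -0.37 with vehicle (all genes 0.04), -0.24 with nintedanib (all genes 0.01) and -0.47 with B20 (all genes 0.08). In all 3 comparisons with T0, which share the same 4 T0 arrays, Ccr2, Nos2, Mrc1 and Csf1 had negative differences and Itgam and Msr1 positive ones, except that Csf1 with nintedanib was -0.03 and turned to 0.01 with the authors' values. The probes of Csf1r differed in sign; the counts and medians above use its brightest probe. Arg1 was negative with the drugs and positive with vehicle, and with nintedanib it turned to 0.29 with array weights.

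**Figure D1:**
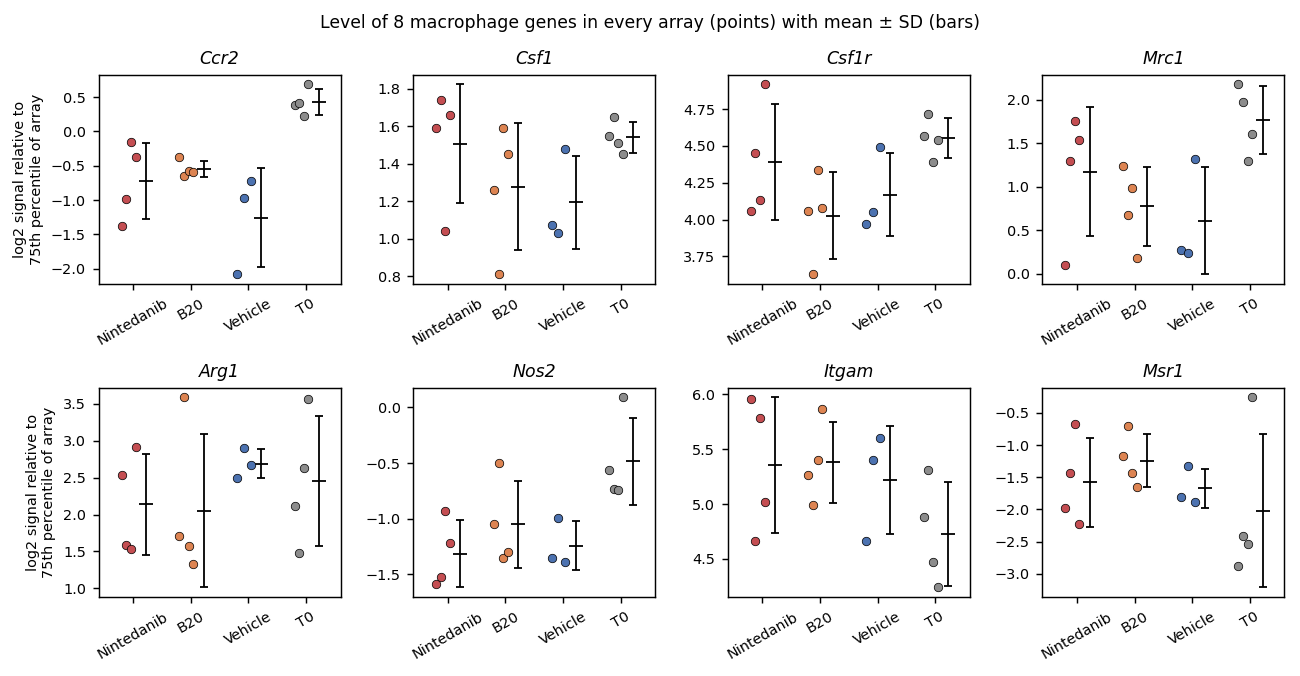
Level of each of the 8 genes on every array (log2 signal relative to the array's 75th percentile; 1 point per array, bars are mean ± SD). For Ccr2, all 11 arrays taken after treatment lie below the lowest T0 array (0.23), and the groups of Arg1, Itgam and Msr1 overlap.

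Ccr2, the receptor through which monocytes follow CCL2 into tissue, had the lowest adjusted p of the 8 genes. Its level was -1.38, -0.98, -0.16 and -0.37 on the nintedanib arrays and -0.37, -0.65, -0.58 and -0.59 on the B20 arrays. It was -2.08, -0.97 and -0.72 on the vehicle arrays and 0.39, 0.41, 0.23 and 0.69 at T0. All T0 arrays were higher than every other array. Among the other 3 groups, vehicle replicate 1 (-2.08) was lowest, followed by nintedanib replicate 1 (-1.38). The difference from T0 was -1.69 ± 0.32 with vehicle (adjusted p = 0.0131), a 3.22-fold higher mean at T0, and -1.15 ± 0.30 with nintedanib (adjusted p = 0.0272). With B20 it was -0.97 ± 0.30 and missed the threshold (adjusted p = 0.0573), though the groups did not overlap. Groups did not overlap in 2 of 8 genes with vehicle (16.7% of all genes), 2 with nintedanib (16.8%) and 3 with B20 (15.5%).

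Without T0 replicate 3 or T0 replicate 4, the Ccr2 difference was -1.75 or -1.60 with vehicle (adjusted p = 0.0151 and 0.0176) and -1.22 or -1.07 with nintedanib (0.0300 and 0.0502). The nintedanib call ended without nintedanib replicate 1 or 2 or T0 replicate 1, 2 or 4 (highest adjusted p = 0.0797), with median scaling (0.0937), with only the 8 arrays of the 2 groups (0.0553) and with slide as a random block (0.0604). The vehicle call ended with only the arrays of its 2 groups (0.0969).

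After treatment, Ccr2 was higher with B20 than with vehicle on every array, by 0.71 ± 0.32 (adjusted p = 0.998 with limma). Such separation was seen in 1 of the 8 genes and in 5.4% of all genes. With nintedanib against vehicle it was seen in none of the 8 and 7.36% of all genes, and with nintedanib against B20 in none and 5.73%. The slide that holds 8 of the arrays gave 0.99 on its own, and the slide with 3 gave 0.14. With nintedanib against vehicle it was 0.53 ± 0.32 (95% interval -0.16 to 1.23), and the groups overlapped. Both values rest on vehicle replicate 1: without it the Ccr2 difference was 0.30 with B20 and 0.12 with nintedanib.

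Adipocyte markers moved with Ccr2. Of the 10 genes of that list, 9 were called lower than T0 in each of the 3 comparisons, with median differences of -4.82 with vehicle, -3.18 with nintedanib and -2.87 with B20. The log2 of their summed level was 5.71 to 8.30 with nintedanib, 5.71 to 7.81 with B20, 4.90 to 6.27 with vehicle and 8.83 to 10.66 at T0, and no marker was below background on every array. Over the 15 arrays the level of Ccr2 correlated with the mean of the adipocyte markers (r = 0.90, and 0.61 for deviations from the group means), and less with the mean of the macrophage markers (0.16 and 0.45). The part of adipose tissue in the Ccr2 difference was not tested. T cells and dendritic cells can also carry CCR2: of 10 measured T and NK cell genes, 1 (Cd3g) was called lower with vehicle than at T0, none with nintedanib and 1 (Klrb1c) with B20, and none of 6 dendritic cell genes was called. Klrb1c was not well above background on any B20 array and was so on 3 of 4 T0 arrays, with an at least 2.64-fold lower level with B20. The marker levels of these cells also went with Ccr2, at r = 0.77 for the T and NK cell markers (0.39 for deviations from the group means) and 0.75 for the dendritic cell markers (0.50). With vehicle against T0 all 6 dendritic cell genes were lower (median -0.69, 4 with an unadjusted p under 0.05), as were 7 of the 10 T and NK cell genes (median -0.55, 4 of 10). The log2 of the summed dendritic cell level was 6.80 to 7.38 with nintedanib, 7.13 to 7.67 with B20, 7.03 to 7.60 with vehicle and 7.06 to 7.55 at T0. That of the T and NK cell genes was 3.14 to 4.13 with nintedanib, 3.51 to 4.44 with B20, 3.26 to 3.55 with vehicle and 3.39 to 3.70 at T0. The mean log2 level, which weighs probes evenly, read differently. For the dendritic cell genes it was -1.14 to -0.66 with nintedanib and -1.50 to -0.76 with B20. With vehicle it was -1.56 to -1.27, below the -0.99 to -0.44 at T0. For the T and NK cell genes it was -1.87 to -1.11 with nintedanib and -1.84 to -1.21 with B20. With vehicle it was -2.08 to -1.79, below the -1.40 to -0.99 at T0. Xcr1 and Cd8b1 were well above background on fewer than 3 arrays and were left out of these sums and means. The part of these cells in the Ccr2 values was not tested.

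No other gene of monocyte attraction was called against T0. Of the 12 ligands and receptors listed, Ccr2 included, 11 were measured. Against vehicle, all 11 were higher with nintedanib (median difference 0.72, all genes -0.01) and all 11 with B20 (median 0.53, all genes 0.04). Both comparisons share the same 3 vehicle arrays, so these counts are not independent of each other. None was called with limma. In each of the 2 comparisons 4 of 11 had an unadjusted p under 0.05, beside 4.83% of all genes with nintedanib and 3.25% with B20. Ccl5, a chemokine for T cells and monocytes, was 1.07 ± 0.36 higher with nintedanib than with vehicle (adjusted p = 0.888).

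Csf1, the growth factor that macrophages depend on, differed little. On its brightest probe the level was 1.59, 1.74, 1.04 and 1.66 with nintedanib and 1.26, 0.81, 1.59 and 1.45 with B20. It was 1.07, 1.03 and 1.48 with vehicle and 1.55, 1.65, 1.51 and 1.45 at T0. T0 was the tightest group and the others overlapped with it. No difference passed; the largest was -0.35 ± 0.22 for vehicle against T0 (95% interval -0.82 to 0.12, adjusted p = 0.393). The other 2 probes gave -0.35 and -0.39 for the same comparison, and correlated with each other at r = 0.92 but with the brightest at only 0.48 and 0.55 over 15 arrays.

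Csf1r, the receptor of CSF1 and a widely used marker of the lineage, gave 3 different answers on its 3 probes. The brightest probe (A_55_P2025078) read 4.06, 4.45, 4.13 and 4.92 with nintedanib and 4.06, 3.63, 4.34 and 4.08 with B20. It read 3.97, 4.05 and 4.49 with vehicle and 4.57, 4.72, 4.39 and 4.54 at T0. All B20 arrays were below all T0 arrays, and the other groups overlapped. The differences from T0 were -0.53 ± 0.21 with B20 (adjusted p = 0.132), -0.39 ± 0.23 with vehicle (0.368) and -0.16 ± 0.21 with nintedanib (0.658).

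A second probe (A_55_P2025073) ran the other way. It read -0.12, -0.16, -0.27 and 0.09 with nintedanib and -0.38, -0.18, -0.24 and -0.07 with B20. It read -0.53, -0.29 and -0.19 with vehicle and -1.09, -0.79, -1.18 and -0.81 at T0. Every T0 array was below every other array. In a fit over all 38969 probes that passed the filter, made after seeing that the probes differ, this probe was called higher than T0 with nintedanib (0.85 ± 0.15, adjusted p = 0.00614), B20 (0.75 ± 0.15, 0.0134) and vehicle (0.63 ± 0.16, 0.0434), beside 10.6%, 8.54% and 4.69% of all probes.

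The third Csf1r probe (A_52_P602091) read -0.89, -0.02, -0.83 and 0.21 with nintedanib, -1.10, -1.40, -1.22 and -1.83 with B20, -0.78, -0.90 and -1.47 with vehicle and -0.75, -0.69, -0.71 and -0.80 at T0. Each nintedanib array was above each B20 array, by 1.00 ± 0.26 on average, which did not pass (adjusted p = 0.532 with limma). It was 1 of the 15 member probes on which nintedanib and B20 did not overlap, beside 5.88% of all probes, and it was singled out after its values were seen. The 3 probes correlated with each other at -0.24 to 0.58 over 15 arrays, and at -0.05, 0.25 and 0.26 with the mean of the macrophage markers. The brightest probe also went with the adipocyte markers (0.61) and against the neutrophil markers (-0.70). No direction is therefore given here for the gene Csf1r.

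**Figure D2:**
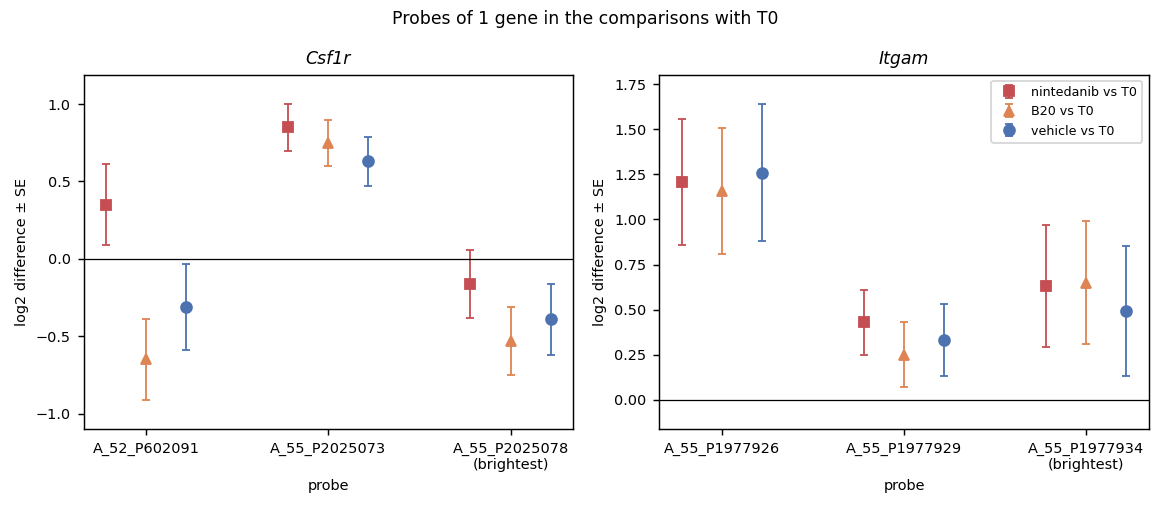
Differences from T0 (log2 ± SE of the probe-level fit) for each probe of Csf1r and Itgam; squares are nintedanib, triangles B20 and circles vehicle. Probe A_55_P2025073 of Csf1r lies above 0 in all 3 comparisons (0.63 to 0.85) where the brightest probe lies below, and the 3 Itgam probes all lie above 0.

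Of the other genes of the colony-stimulating factor axis, 10 of 11 were measured with Csf1 and Csf1r included, and 1 was called in the comparisons with T0. This was Il34, the second ligand of CSF1R, which fell with B20 by 0.95 ± 0.23 on the log2 scale (adjusted p = 0.0238). Its mean level was -0.25 ± 0.30 with B20 and 0.71 ± 0.15 at T0 (SD, n = 4 each). Its difference from T0 was -0.61 ± 0.23 with nintedanib (adjusted p = 0.103). Il34 was also the second most similar gene to the brightest Csf1r probe over the 15 arrays (r = 0.88), after Iglon5 (0.92) and ahead of Casz1 (0.87). The median difference of the axis from T0 was -0.30 with B20 (all genes 0.08), -0.19 with vehicle (0.04) and 0.05 with nintedanib (0.01). None of the 10 was called with B20 against vehicle.

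Itgam encodes the CD11b chain of the integrin Mac-1, which lets monocytes, macrophages and neutrophils stick to vessel walls. Its brightest probe (A_55_P1977934) read 5.96, 4.66, 5.78 and 5.02 with nintedanib and 5.26, 4.99, 5.40 and 5.87 with B20. It read 4.66, 5.40 and 5.60 with vehicle and 4.88, 5.31, 4.47 and 4.24 at T0. All groups overlapped, and the differences from T0 of 0.63 ± 0.33 with nintedanib (adjusted p = 0.236), 0.65 ± 0.33 with B20 (0.237) and 0.49 ± 0.36 with vehicle (0.484) did not pass. With the mean of its 3 probes in place of the brightest, Itgam was called higher with nintedanib (0.76, adjusted p = 0.0378) and not with B20 (0.69, 0.0597) or vehicle (0.69, 0.0993).

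The other 2 Itgam probes also had positive mean differences from T0, with groups that overlapped except for nintedanib on A_55_P1977926. Probe A_55_P1977926 differed by 1.21 ± 0.35 with nintedanib (adjusted p = 0.0429 over all probes), 1.16 ± 0.35 with B20 (0.0559) and 1.26 ± 0.38 with vehicle (0.0749). It was dim, at -5.03 to -3.68 at T0 and not well above background on 1 of the 15 arrays, and the authors' values gave differences of 0.37 with nintedanib, 0.34 with B20 and 0.38 with vehicle. Probe A_55_P1977929 differed by 0.43 ± 0.18 with nintedanib (adjusted p = 0.145), 0.25 ± 0.18 with B20 (0.432) and 0.33 ± 0.20 with vehicle (0.374). The levels of the 3 probes correlated at 0.35 to 0.56 over 15 arrays, and at only 0.08 to 0.22 for deviations from the group means. The brightest probe was not tied to the macrophage markers (r = -0.22 over 15 arrays), and the genes most like it were Fgf23, Mcidas and Snap25 (r = 0.996, 0.995 and 0.993). Probe A_55_P1977926 correlated with these markers at 0.12 and was most like Slc49a4 (r = 0.96). For probe A_55_P1977929 the value was 0.49, and the most similar gene was Olfr324 (r = 0.854). Of 7 leukocyte integrin genes, 6 were measured and none was called in any comparison, with at most 2 of them at an unadjusted p under 0.05. Itgax, the CD11c chain, differed from T0 by 0.68 ± 0.24 with nintedanib (adjusted p = 0.0867).

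Msr1, scavenger receptor A, takes up modified lipoproteins and debris. Its level was -1.98, -1.44, -0.67 and -2.22 with nintedanib and -1.17, -0.70, -1.44 and -1.65 with B20. It was -1.80, -1.33 and -1.89 with vehicle and -2.87, -2.41, -2.54 and -0.26 at T0. T0 replicate 4 held the highest value of all arrays and the other 3 T0 arrays the lowest. No difference passed; that of B20 from T0 was 0.78 ± 0.50 (adjusted p = 0.349), and it was 1.36 without T0 replicate 4 (adjusted p = 0.0242).

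Of the 8 genes, Msr1 had the highest correlation with the macrophage markers, which do not include it: r = 0.79 with their mean over 15 arrays and 0.81 for deviations from the group means. Its second probe correlated with it at 0.91. The most similar genes were Clec4d, Ms4a6d and Bcl2a1d (r = 0.94, 0.93 and 0.92), of which Clec4d is a lectin receptor of myeloid cells.

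Mrc1, the mannose receptor CD206, marks resident and alternatively activated macrophages. Its level was 0.10, 1.29, 1.76 and 1.54 with nintedanib and 1.24, 0.68, 0.99 and 0.18 with B20. It was 0.27, 0.24 and 1.32 with vehicle and 2.18, 1.97, 1.30 and 1.61 at T0. The B20 arrays were all below T0, and the vehicle group had 1 array above the lowest T0 value. The differences from T0 were -0.99 ± 0.37 with B20 (adjusted p = 0.110), -1.15 ± 0.40 with vehicle (0.114) and -0.59 ± 0.37 with nintedanib (0.324). None passed, except with array weights, where vehicle gave -1.50 (0.00966) and B20 -1.08 (0.0304).

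Within the set Mrc1 was closest to Ccr2 (r = 0.78 over 15 arrays, 0.67 for deviations from the group means). Outside it, the closest genes were Pf4, a chemokine carried by platelets and by some tissue macrophages, Cd209f, a lectin of the DC-SIGN family, and Dpt, a matrix protein of fibroblasts (r = 0.97, 0.95 and 0.95). Pf4 is the 1 macrophage marker of 27 that was called in any comparison, with a difference of -2.11 ± 0.56 between vehicle and T0 (adjusted p = 0.0478). Mrc1 also correlated with the adipocyte markers (0.83, and 0.80 for deviations from the group means) and less with the macrophage markers as a whole (0.16 and 0.30). Its correlation was 0.80 with the dendritic cell markers (0.69 for deviations from the group means), 0.74 with the endothelial markers (0.62) and 0.69 with the skeletal muscle markers (0.63). All 9 muscle genes were lower than T0 in each of the 3 comparisons, with medians of -2.77 with nintedanib, -1.51 with B20 and -3.81 with vehicle, and none was called (1, 0 and 7 of the 9 had an unadjusted p under 0.05). The log2 of their summed level was 3.70 to 7.56 with nintedanib, 4.0 to 10.38 with B20, 3.22 to 6.28 with vehicle and 5.46 to 10.95 at T0. The part of fat, muscle, vessels and dendritic cells in the Mrc1 values was not tested.

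**Figure D3:**
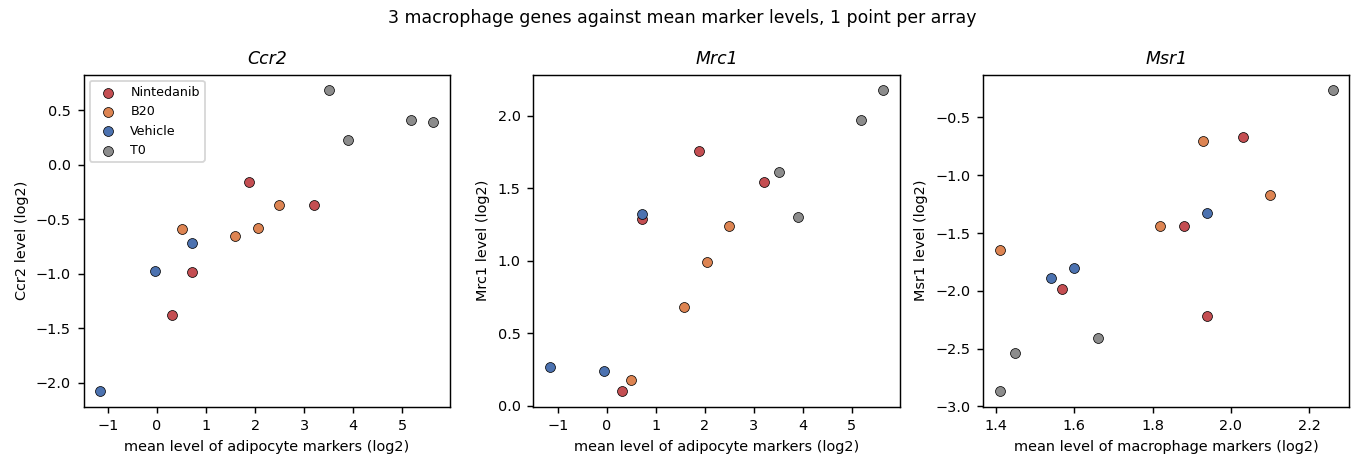
Levels of Ccr2, Mrc1 and Msr1 against the mean level of adipocyte markers or of macrophage markers (both log2), 1 point per array, coloured by group. Ccr2 and Mrc1 rise with the adipocyte markers (r = 0.90 and 0.83), with T0 at the upper end, and Msr1 rises with the macrophage markers (r = 0.79).

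Among scavenger receptors as a list, 12 of 15 were measured, Mrc1 and Msr1 included. Cd36, a fatty acid receptor of fat cells, endothelium and macrophages, was called lower than T0 in all 3 comparisons (-5.02 ± 0.72 with vehicle, -3.72 ± 0.67 with nintedanib and -3.38 ± 0.67 with B20; adjusted p = 0.00557, 0.00594 and 0.0116), on the arrays with the low adipocyte markers. Scara5, a ferritin receptor, was called higher with nintedanib (1.37 ± 0.23, adjusted p = 0.00482) and B20 (0.78 ± 0.23, 0.0484). None of the 12 was called among the groups after treatment, where at most 2 had an unadjusted p under 0.05.

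Arg1, arginase 1, which turns arginine into ornithine and urea, varied widely inside groups. Its level was 2.53, 1.59, 1.53 and 2.91 with nintedanib and 1.71, 3.59, 1.57 and 1.33 with B20. It was 2.50, 2.90 and 2.67 with vehicle and 2.12, 1.48, 2.63 and 3.57 at T0. The B20 group held both the highest and the lowest array of the series, a 4.78-fold range, and all groups overlapped. The differences from vehicle were -0.55 ± 0.57 with nintedanib (95% interval -1.76 to 0.67) and -0.64 ± 0.57 with B20 (-1.86 to 0.58). Without B20 replicate 2 the Arg1 difference with B20 was -1.15 from vehicle and -0.91 from T0 (adjusted p = 0.999 and 0.243), where it was -0.40 from T0 with all arrays. With nintedanib against vehicle it ran between -0.80 and -0.34 when 1 array was left out. No difference passed (lowest adjusted p = 0.675 against T0). The genes most like Arg1 were Ogg1, Cdc37 and Phgdh (r = 0.84, 0.83 and 0.83), and the macrophage markers correlated with it at 0.27.

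Nos2, inducible nitric oxide synthase, was at its highest before treatment. Its level was -1.59, -1.52, -0.93 and -1.22 with nintedanib and -1.05, -0.50, -1.35 and -1.30 with B20. It was -1.35, -0.99 and -1.39 with vehicle and -0.56, -0.73, -0.74 and 0.09 at T0. Apart from B20 replicate 2, every array taken after treatment was below every T0 array. The difference from T0 was called with nintedanib (-0.83 ± 0.24, adjusted p = 0.0427) and not with vehicle (-0.76 ± 0.26, 0.107) or B20 (-0.57 ± 0.24, 0.156), and the nintedanib and vehicle values lay within 1 SE of each other (difference -0.07 ± 0.26).

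The nintedanib call on Nos2 ended when any of nintedanib replicates 1, 2 and 4 or T0 replicates 1, 2 and 4 was left out (highest adjusted p = 0.113; -0.64 and 0.0826 without T0 replicate 4). It also ended with median scaling (0.219), no filter on dim probes (0.0637), only the 8 arrays of the 2 groups (0.0885) or slide as a random block (0.0779). Without T0 replicate 3 it was -0.91 (0.0379). Nos2 correlated with the macrophage markers at 0.35 over 15 arrays and at 0.75 for deviations from the group means, and with Msr1 at 0.29 and 0.80. Its levels also ran with the adipocyte markers (0.62, and 0.07 for deviations from the group means) and the T and NK cell markers (0.61 and 0.26).

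**Figure D4:**
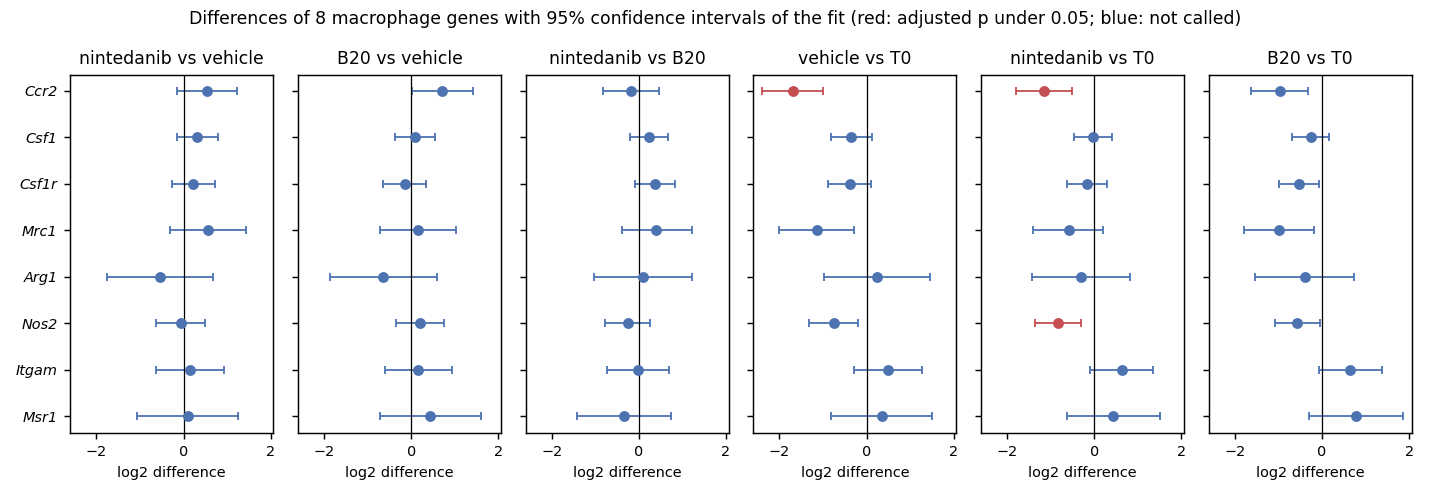
Log2 differences of the 8 genes in the 6 comparisons with 95% intervals of the fit; red marks the 3 called values and blue the others. The called values are Ccr2 with vehicle against T0 (-1.69) and Ccr2 and Nos2 with nintedanib against T0 (-1.15 and -0.83), and every interval among the 3 groups after treatment reaches 0 except that of Ccr2 with B20 against vehicle (0.01 to 1.41).

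Most of the other classical activation genes that were called against T0 were higher, where Nos2 was lower. Of 19 listed, 16 were measured, Nos2 included: 4 were called higher and 1 (Nos2) lower with nintedanib, 5 higher and none lower with B20, and 3 higher and 1 (Cxcl9) lower with vehicle. Their median difference was 0.53 with nintedanib (all genes 0.01), 0.34 with B20 (0.08) and 0.13 with vehicle (0.04). Ptgs2, the inducible prostaglandin synthase COX-2, had levels of -2.78 to -0.57 with nintedanib, -0.93 to 0.34 with B20, -1.82 to -0.65 with vehicle and -4.41 to -3.56 at T0.

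The Ptgs2 difference from T0 was 2.44 ± 0.44 with nintedanib, 3.44 ± 0.44 with B20 and 2.86 ± 0.47 with vehicle (adjusted p = 0.00588, 0.00280 and 0.00780). Tnf, the gene of tumour necrosis factor, rose in all 3 (by 1.24 ± 0.21 with nintedanib, 0.91 ± 0.21 with B20 and 0.98 ± 0.23 with vehicle; adjusted p = 0.00518, 0.0211 and 0.0304). Il1b, interleukin-1 beta, rose with nintedanib (1.32 ± 0.39, adjusted p = 0.0433) and B20 (2.65 ± 0.39, 0.00438). Il23a, a subunit of interleukin-23, was not well above background on any T0 array and was at least 2.80-fold higher with nintedanib, 3.46-fold with B20 and 4.49-fold with vehicle (adjusted p = 0.0136, 0.0100 and 0.00915). Cxcl9, an interferon-gamma-induced chemokine, fell with vehicle (-1.88 ± 0.39, adjusted p = 0.0176). Among the groups after treatment none of the 16 was called, and 2 or 3 had an unadjusted p under 0.05.

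Of 24 genes of alternative activation, 20 were measured, Mrc1 and Arg1 included, and those called were mostly lower than T0: 5 lower and none higher with vehicle, 2 lower and 1 higher with nintedanib, and 5 lower and 1 higher with B20. Retnla, a secreted protein induced by interleukin-4 that fat tissue also makes, had levels of -0.08 to 2.94 with nintedanib, -1.81 to 2.59 with B20, 0.33 to 1.82 with vehicle and 4.22 to 5.52 at T0. Its difference from T0 was -2.92 ± 0.85 with nintedanib, -3.62 ± 0.85 with B20 and -3.51 ± 0.92 with vehicle (adjusted p = 0.0425, 0.0216 and 0.0453). Pparg, a nuclear receptor of fat cells and of alternatively activated macrophages, fell by 2.74 ± 0.61 with nintedanib, 2.55 ± 0.61 with B20 and 3.59 ± 0.66 with vehicle on the log2 scale (adjusted p = 0.0141, 0.0234 and 0.0110).

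Ccl24, an eosinophil chemokine, and the lectin Clec10a fell with B20 (-3.26 ± 0.64 and -1.98 ± 0.50) and with vehicle (-3.22 ± 0.69 and -2.35 ± 0.54; highest adjusted p = 0.0288). Irf4, a transcription factor of lymphocytes and of interleukin-4 responses, fell with the same 2 groups, and failed the background criterion on all 3 vehicle arrays, where it was at least 8.33-fold lower (adjusted p = 0.0268). With B20 it met the criterion on only 1 of 4 arrays. Il10, the gene of the anti-inflammatory interleukin-10, was called higher with nintedanib and B20 (1.16 ± 0.25 and 1.34 ± 0.25, adjusted p = 0.0130 and 0.0103) and was well above background on 1 of 4 T0 arrays. These arrays carried the lower adipocyte markers given above, whose part in the lower genes was not tested. Among the groups after treatment none of the 20 was called, and 1 at most had an unadjusted p under 0.05.

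In arginine metabolism, 9 of 10 genes were measured with Arg1 and Nos2 included. Besides Nos2, the endothelial synthase Nos3 was called lower than T0 with nintedanib (-1.55 ± 0.42, adjusted p = 0.0324) and B20 (-1.95 ± 0.42, 0.0163), and it differed by -1.65 ± 0.46 with vehicle (0.0548). Of 8 endothelial markers, 1 was called lower with nintedanib, 5 with B20 and 1 with vehicle. Counted without a call, 8 were lower than T0 with nintedanib, 7 with B20 and 8 with vehicle. Their median differences were -0.59, -1.14 and -0.69 (all genes 0.01, 0.08 and 0.04). The log2 of their summed level was 3.66 to 4.02 with nintedanib, 4.01 to 4.57 with B20, 3.70 to 4.46 with vehicle and 4.13 to 4.76 at T0. Their mean log2 level, which weighs probes evenly, was -0.88 to -0.29 with nintedanib and -1.28 to -0.84 with B20. It was -0.87 to -0.42 with vehicle and -0.31 to 0.74 at T0. With nintedanib against B20, 6 of the 8 were higher and 2 lower (median 0.56, all genes -0.04), and none was called. The part of endothelium in the Nos3 values was not tested. Neutrophils also express ITGAM and can carry ARG1: of 11 measured neutrophil genes, S100a8 was called higher than T0 with B20 (1.32 ± 0.37, adjusted p = 0.0420) and no other neutrophil gene in any comparison. The mean of the neutrophil markers was highest on B20 replicate 2 (0.42, against -0.65 to -0.45 on the other B20 arrays), the array with the highest Arg1, and its part in that value was not tested.

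Over all 15 arrays the 8 genes did not behave as 1 group. The highest correlations between them were Csf1r with Csf1 and Mrc1 with Ccr2 (both r = 0.78), Nos2 with Ccr2 (0.75) and Csf1r with Mrc1 (0.70), the Csf1r values being those of its brightest probe. The lowest were Csf1 with Msr1 (-0.55) and Nos2 with Itgam (-0.53). For deviations from the group means, Csf1r and Csf1 kept 0.74 and Mrc1 and Ccr2 0.67, where Nos2 and Ccr2 had 0.45 and Csf1 and Nos2 reached -0.77. These values describe 15 arrays that share groups, slides and tissue makeup.

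The genes most like the remaining members were Wfdc21, A530064D06Rik and Mrap for Ccr2 (r = 0.94, 0.93 and 0.93), the last of which is an accessory protein of the melanocortin receptors known from adrenal and fat tissue. They were Lypla1, Cmc1 and Ocel1 for Nos2 (0.96, 0.95 and 0.95) and Padi2, Sort1 and Sidt1 for Csf1 (0.90, 0.88 and 0.87). The comparison ran over 16110 named genes and 15 arrays.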

How the data were processed

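Total RNA of 15 mammary tumour samples was hybridised to 1-colour (Cy3) Agilent arrays; 0.5 ug of RNA was labelled per sample, per the labels' protocols. Per the file headers, a G2505C scanner was used for the arrays (design 028005), and Feature Extraction 10.7.3.1 read the images and removed background. The spot intensity (processed signal) used here is the one that the authors deposited per array, not normalised between arrays. Flags for well-above-background and outlier spots are other values, 0 or 1, per the file headers. The log2 values in the authors' deposited series table, made in a way not stated in the labels or headers, served as an alternative.

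Control and outlier spots were left out, spots of 1 of the 55681 probes were averaged (82 values with outlier spots only were filled with the probe's mean), and log2 intensity was set relative to the array's 75th percentile. A probe was kept where at least 3 of 15 arrays had it well above background, and each gene took its brightest probe. RefSeq transcripts (GRCm38.p6) named 26056 probes and left 29625 unnamed. A linear model with 4 group means (R 4.3.3, limma 3.58.1, two-sided, Benjamini-Hochberg over 28041 genes, call at an adjusted p under 0.05) gave 6 comparisons; the script was tested on simulated data. The number of arrays limits the precision (median SE 0.29 for 4 against 3 arrays, 0.269 for 4 against 4), and no spot was saturated. Alternatives changed background correction, scaling, filter, probe, arrays, weights and blocks; the normexp alternative used median spot signals in place of mean ones. The 10 members and all lists were chosen with earlier results of these data known. Named genes were the members, for each the 3 genes with the highest correlation to it, and from each list the called genes or those with the lowest p in a direction.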

Additional observations from a re-analysis of the deposited data

Results flagged for a closer look

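Arg1 on B20 replicate 2 had a level of 3.59, where the nearest B20 array had 1.71 and the lowest 1.33. Without this array the B20 difference was -1.15 from vehicle and -0.91 from T0, against -0.64 and -0.40 with it. Its gap to the nearest array was 0.834 of the group's range, above the 95% critical value of Dixon's test for 4 samples. Of 24 groups of 4 arrays tested over the 8 genes this was the 1 that passed, and chance alone flags about 1 group in 20.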

How the results depend on the processing

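Of 978 values of single genes under an alternative, 887 kept their direction and their side of the threshold, 20 lost a call, 12 gained one, 5 moved and 54 changed sign. The causes were not tested. The alternatives for single probes were chosen after seeing the data. Among the groups after treatment no member was called under any alternative run, and all genes called stayed at 0 except for 12 with array weights and 1 without vehicle replicate 2 (nintedanib against vehicle), and 1 with only the arrays of 2 groups (nintedanib against B20). Against T0 the counts of genes called over all genes were 3209 with nintedanib, 2665 with B20 and 1379 with vehicle. The nintedanib count became 1368 with median scaling, 1455 with only the arrays of 2 groups, 7926 with array weights and 2024 with slide as a random block. Under the same settings the B20 count became 1186, 983, 6068 and 1538, and the vehicle count 680, 17, 5278 and 874. B20 had 1599 with normexp, and vehicle 893 without the filter on dim probes. With 1 array left out they ran between 1610 and 3917 for nintedanib, 918 and 3302 for B20, and 480 and 2096 for vehicle. The arrays whose omission moved a count by over 1.5 times were nintedanib replicate 1 (1610) and T0 replicates 1 and 2 (1711 and 1920) for nintedanib, and B20 replicates 2 and 4 (1164 and 918) and T0 replicates 1 and 2 (1082 and 1347) for B20. For vehicle they were vehicle replicates 1, 2 and 3 (522, 512 and 480) and T0 replicates 1, 2 and 4 (522, 656 and 2096).

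Of the 8 members, 2 were called with nintedanib against T0: 0 with median scaling, with only the arrays of 2 groups or with slide as a random block, 1 without the filter or with the replicate block, and 3 with the mean of a gene's probes, which added Itgam (0.76, adjusted p = 0.0378). With vehicle, 1 was called, 0 with only the arrays of 2 groups and 2 with array weights. With B20, 0 were called, 1 (Ccr2, adjusted p = 0.0256 to 0.0417) with normexp, the authors' values, the filter on all arrays or only the arrays of 2 groups, and 4 with array weights. Leaving out 1 array gave 0 to 2 members with nintedanib, 1 with vehicle and 0 to 1 with B20.

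Arrays with the same replicate number were no more alike than others. Over 21 pairs with the same number the correlation of deviations ran between -0.246 and 0.38 (median 0.008). Over 63 pairs with different numbers it ran between -0.304 and 0.468 (median -0.01). With so few arrays per group, these values cannot exclude a pairing. With the replicate block, genes called against T0 were 2636 with nintedanib, 2074 with B20 and 1223 with vehicle, and the Nos2 call with nintedanib was lost (adjusted p = 0.0713). Normexp moved the median of all genes by -0.11 between nintedanib and B20.

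Signs changed where differences were small or probes differed. Nintedanib against vehicle, within the slide of 3 arrays, gave 0.24 for Arg1, 0.18 for Nos2, -0.58 for Itgam and -0.33 for Msr1; array weights gave -0.02 for Itgam and -0.06 for Msr1, and Itgam probe A_55_P1977926 gave -0.05. Without single arrays Nos2 ran between -0.19 and 0.06, Itgam between -0.14 and 0.37 and Msr1 between -0.21 and 0.31. B20 against vehicle, within the slide of 3, gave -0.03 for Csf1 and -1.14 for Mrc1; Csf1r probe A_55_P2025073 gave 0.12, and the dimmer Itgam probes -0.09 and -0.08. Without single arrays Csf1r ran between -0.25 and 0.02, Csf1 between -0.02 and 0.24, Mrc1 between -0.03 and 0.51 and Itgam between -0.12 and 0.35. Nintedanib against B20, within the slide of 3, gave 0.08 for Nos2 and 0.21 for Ccr2, and within the slide of 8, -0.40 for Arg1 and 0.25 for Itgam. Itgam was 0.03 with normexp, 0.10 with quantile normalisation, 0.13 with the authors' values, 0.07 as the mean of its probes and 0.05 and 0.18 on its dimmer probes, and Msr1 0.07 on probe A_52_P127130. Without single arrays Arg1 ran between -0.16 and 0.61, Ccr2 between -0.37 and 0.04 and Itgam between -0.22 and 0.21. Against T0, Csf1r on probe A_55_P2025073 gave 0.85 with nintedanib, 0.75 with B20 and 0.63 with vehicle, and with nintedanib 0.35 on probe A_52_P602091, 0.35 as the mean of its probes and 0.04 with the authors' values. With nintedanib Csf1 was 0.01 with the authors' values and Arg1 0.29 with array weights. Without single arrays Csf1 ran between -0.11 and 0.12 and Arg1 between -0.63 and 0.07 with nintedanib, and Arg1 between -0.08 and 0.61 with vehicle.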

Other observations

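The 27 measured markers of monocytes and macrophages moved little between the groups. Against vehicle, 20 of 27 were higher with nintedanib (median difference 0.10, all genes -0.01) and 20 with B20 (median 0.18, all genes 0.04), and none was called. These counts share the same 3 vehicle arrays. Against T0, 18 were higher with nintedanib (median 0.18, all genes 0.01), 22 with B20 (median 0.22, all genes 0.08) and 14 with vehicle (median 0.04, all genes 0.04), where Pf4 was the 1 call. Adgre1, the classical surface marker of mouse macrophages, had a mean level of 0.88 ± 0.21 with nintedanib, 1.03 ± 0.18 with B20, 0.65 ± 0.26 with vehicle and 0.81 ± 0.51 at T0 (SD, n = 4, 4, 3 and 4). Cybb, a subunit of the phagocyte oxidase, differed from T0 by 0.56 ± 0.20 with nintedanib (adjusted p = 0.081), and Fcgr4, an Fc receptor, by 0.99 ± 0.32 with B20 (adjusted p = 0.0664).

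T0 replicate 4, which carries 2 treatment labels, had the highest level of all 15 arrays in Ccr2 (0.69), Nos2 (0.09) and Msr1 (-0.26), the lowest in the brightest Itgam probe (4.24), and the highest mean of the macrophage markers (2.26, against 1.41 to 2.10 on the other arrays). It was also highest in Ccl2, the main ligand of CCR2, with a level of 2.48, where the other T0 arrays reached at most -0.11 and the arrays after treatment at most 1.01.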
